A study of Rattus norvegicus with 2 samples.

Results

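The genes encoding chemokines and chemokine receptors were examined in rat whole blood after oral lavender oil (LO). They were taken as every gene symbol that starts with Ccl, Cxcl, Ccr or Cxcr and a digit, together with Cx3cl1, Cx3cr1, Xcl1, Xcr1, Ackr1 and Ccrl2. The rule found 40 genes, 26 ligands and 14 receptors, among the 8898 genes that could be named on the array. They were read by 46 probes on 55 spots, none of which was flagged or saturated. Another 15 symbols of the family have no probe that could be matched and were not analysed here. These are Ackr1, Ccl1, Ccl12, Ccl19, Ccl26, Ccl27, Ccr10, Ccr1l1, Ccr8, Ccrl2, Cxcl16, Cxcl17, Cxcl3, Cxcr6 and Xcr1.

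Chemokines are small secreted proteins that direct the migration of white blood cells. They are grouped as CC, CXC, C and CX3C ligands by the spacing of their first cysteines, and they bind membrane-spanning receptors that signal through G proteins of the inhibitory class. Inflammatory chemokines are made by leukocytes and tissue cells after a stimulus, whereas homeostatic ones are made steadily, mostly outside the blood, and guide lymphocytes through lymphoid organs. Blood leukocytes carry the receptors, and which receptor a cell carries differs with its type.

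Whole blood was compared between 6 male rats that received LO at 5 mg/kg and 6 control male rats that received 0 mg/kg, all in the 10% ethanol diluent. The rats were 7 weeks old, and the dose went into the stomach daily over 13 days. A figure legend of the study places the blood sampling on the 14th day, whereas its methods text says 14 days after treatment. The labels give both Wistar and F334 as the strain, and the methods name Fischer F334 rats. Heart and portal vein are the sources of the blood in the labels, and the heart alone in the methods. The RNA of the 6 rats of each group was pooled before labelling, so that each group is 1 pool. On array 1 Cy5 labelled the LO pool and Cy3 the control pool, and on array 2 Cy3 labelled the LO pool and Cy5 the control pool. Both arrays read the same RNA and count as 1 replicate. They hold no spread between rats, and no test between the conditions was possible. A signal stands for the RNA of all blood cells together, so that fewer cells of a type and less RNA per cell cannot be told apart.

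Many inflammatory chemokine genes are known to be switched on by NF-κB, a transcription factor of inflammation. The sequences printed here hold a letter pattern of the type this factor binds, GGGANNNNCC on either strand, in the promoters of 8 ligands. The pattern was chosen after the detection values were seen, and the 8 include ligands with and without a signal well above background in blood. The sequences are from RefSeq (GRCr8), 5′ to 3′ on the strand of the gene, and capitals mark the match. The ligands Cxcl1, Cxcl6 and Cxcl2, which recruit neutrophils, lie close together on chromosome 14, as do the interferon-inducible Cxcl10, Cxcl11 and Cxcl9. Ccl20 attracts cells carrying Ccr6, and Ccl22 attracts T cells carrying Ccr4.
Cxcl1, chr14:17479375-17479424, minus strand: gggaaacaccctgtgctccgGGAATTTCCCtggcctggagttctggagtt
Cxcl6, chr14:17596475-17596524, minus strand: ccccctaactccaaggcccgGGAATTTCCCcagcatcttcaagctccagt
Cxcl2, chr14:17467299-17467348, minus strand: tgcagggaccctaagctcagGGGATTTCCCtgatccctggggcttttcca
Cxcl10, chr14:15988859-15988908, plus strand: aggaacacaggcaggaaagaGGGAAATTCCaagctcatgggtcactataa
Cxcl11, chr14:15973634-15973683, plus strand: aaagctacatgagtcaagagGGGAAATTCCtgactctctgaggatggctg
Cxcl9, chr14:16007052-16007101, plus strand: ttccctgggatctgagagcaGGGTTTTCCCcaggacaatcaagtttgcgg
Ccl20, chr9:91837049-91837098, plus strand: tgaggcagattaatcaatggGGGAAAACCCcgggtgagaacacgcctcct
Ccl22, chr19:10270472-10270521, minus strand: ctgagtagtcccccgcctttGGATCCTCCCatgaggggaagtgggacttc

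The pattern was found within the 250 bases before the start in 12 of the 30 chemokine and receptor genes that have a promoter entry (40%), and in 5498 of all 33469 promoters (16.4%). Among the ligands it was found in 11 of 21 (52.4%), and among the receptors in 1 of 9, Ccr3. The ligands Cxcl1, Cxcl6, Cxcl10 and Cxcl11 shared the same 10 letters, GGGAAATTCC or its other strand. Ccl20 and Cxcl9 shared GGGAAAACCC, on opposite strands. A match is a description of the letters and not of a bound site, and related neighbouring genes are not independent. The genes with no promoter entry include Ccl2, Ccl3, Ccl4, Ccl5, Ccl11, Ccr4, Ccr7, Ccr9 and Cxcr5.

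The first question was which of these genes gave a signal in blood. Each array has a channel for each pool, so that a gene has 4 channels, and a gene with several probes was counted by the probe detected in most channels and then by the brightest. In 20 of the 40 genes (50%) the signal was rated well above background in all 4 channels, compared with 51.1% of all named genes. In 8 genes (20%) it was so in no channel, compared with 29.6% of all named genes. The other 12 genes were above background in 1 to 3 channels. By channel, the number of genes above background was 24 (LO) and 23 (control) on array 1 and 30 and 26 on array 2. Of all 8898 named genes it was 5367 (LO) and 5081 (control) on array 1 and 5550 and 5503 on array 2. Receptors were above background in all 4 channels in 8 of 14 genes (57.1%) and ligands in 12 of 26 (46.2%). Every receptor other than Ccr6 was above background in at least 1 channel. Requiring every probe of a gene gave 17 genes in place of 20.

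The ligands differed by class. Of the CC ligands, 9 of 15 were above background in all 4 channels, namely Ccl2, Ccl3, Ccl4, Ccl5, Ccl6, Ccl11, Ccl17, Ccl22 and Ccl25. Of the CXC ligands only Cxcl9 was, 1 of 9, and 4 of the 9 were above background in no channel. The ligands above background in no channel were Ccl20, Ccl24, Ccl28, Cxcl1, Cxcl6, Cxcl11 and Cxcl13, and their signals, with those of Ccr6, lay between 8.97 and 66.8 in every channel. Of these 7 ligands, 6 had the promoter pattern shown above, all but Ccl28, compared with 2 of the 7 ligands with an entry among those in all 4 channels (Ccl22 and Cxcl9). Of all ligands in 0 to 3 channels, 9 of 14 had the pattern. These counts were made after the detection values were known. Ccl2, Ccl3, Ccl4, Ccl5 and Ccl11, the ligands with no promoter entry, are all among those in all 4 channels. The missing entries thus fall on 1 side of the comparison, and it cannot tell whether the pattern goes with a lack of signal.

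**Figure D1:**
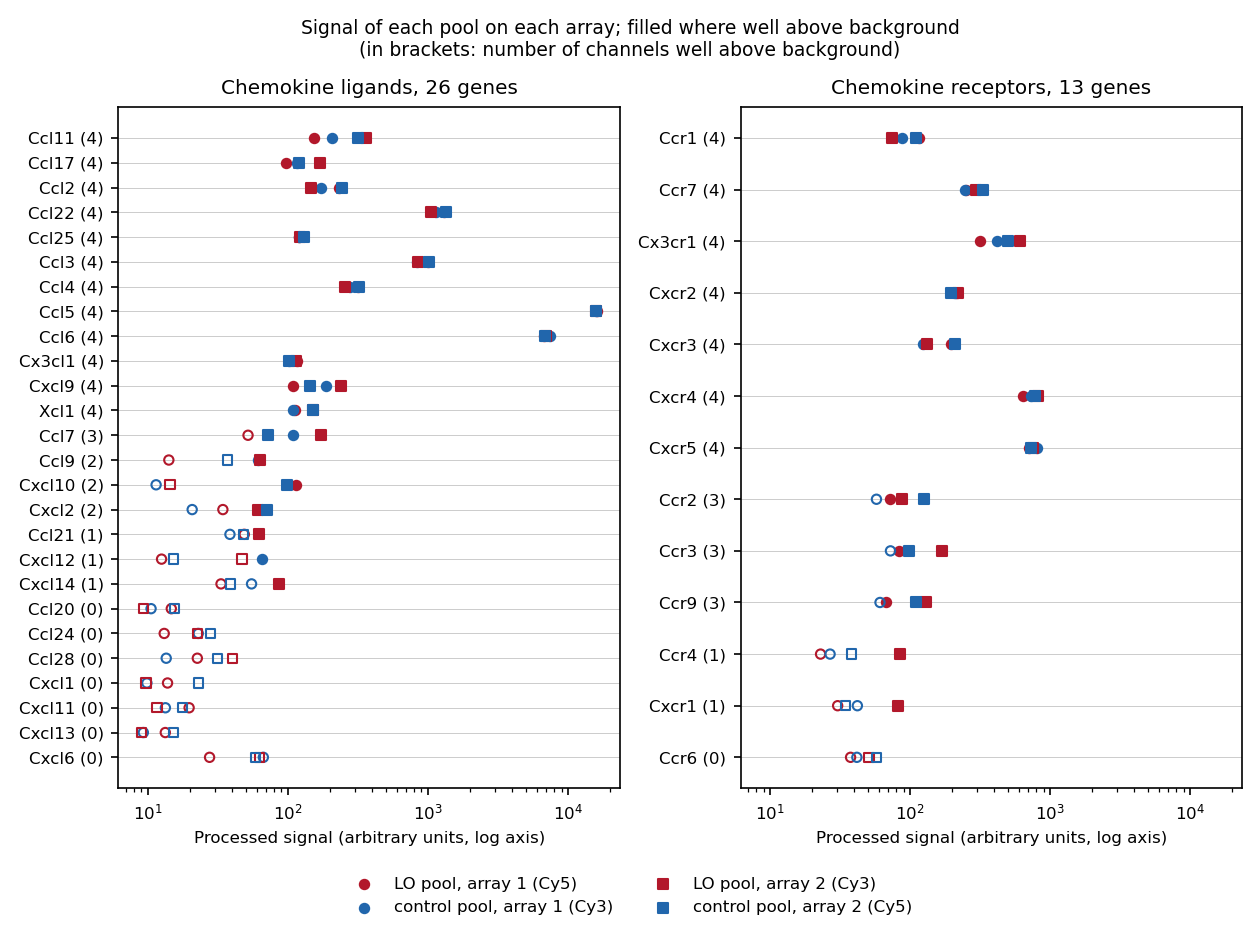
Processed signal (arbitrary units, log axis) of 26 ligand and 13 receptor genes in each pool on each array, circles for array 1 and squares for array 2, LO in red and control in blue, filled where well above background. At the top of the panels 12 ligands and 7 receptors are filled in all 4 channels, and Cxcl10 is filled only in the Cy5 channel of each array.

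The second question was whether LO changed the level of these genes. The methods select genes by a Feature Extraction p under 0.01 and by opposed dye ratios on the arrays, that is, the same direction of LO/control. Read here as a p under 0.01 on both arrays, this rule was passed by no chemokine or receptor gene. The count was 0 of 46 probes, also with a p under 0.05 on both arrays, and the rule called 9 of all 41009 probes (0.0219%). The software derives this p from the error of a spot, and it says nothing of the spread between rats. The mean of the LO/control ratios of both arrays, here called the LO part, exceeded 1.5-fold in 0 of the 20 genes measured in all 4 channels, and in 0.123% of all 15386 probes measured so. On the log2 scale it ran from -0.15 (Ccl2) to 0.19 (Cx3cl1), with a median of -0.049 and an SD over the genes of 0.082. It was above 0 in 7 genes and below 0 in 13. Over all 15386 probes it was above 0 in 7487 and below 0 in 7899, with a median of -0.00263 and an SD of 0.124. Receptors had a median LO part of -0.057 (-0.092 to 0.11, n = 8 genes) and ligands one of -0.033 (-0.15 to 0.19, n = 12 genes).

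The ratios of the arrays were opposed. In 18 of the 20 genes LO/control lay above 1 on one array and below 1 on the other, as it did for 75.6% of all 15386 probes. The ratio thus followed the dye more than the pool in those genes. The log2 ratio of array 1 minus that of array 2, divided by 2, is here called the dye part and is positive towards Cy5. It ran from -0.75 (Cxcl9) to 0.67 (Cxcr3), with an SD of 0.34 over the 20 genes and 0.297 over all probes. It exceeded 1.5-fold in 3 genes, Ccl2, Cxcl9 and Cxcr3, with a background of 6.49% of probes. Pearson's r between the arrays was -0.90 over the 20 genes (Spearman's -0.82) and -0.70 over the 15386 probes (Spearman's -0.68). These are correlations across genes that share both arrays, and genes are not independent replicates. All directions rest on the dyes that the labels and the methods give for each array. Were the dyes the same on both arrays, the value called the dye part would hold the LO/control ratio together with any dye bias. These could then not be told apart.

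**Figure D2:**
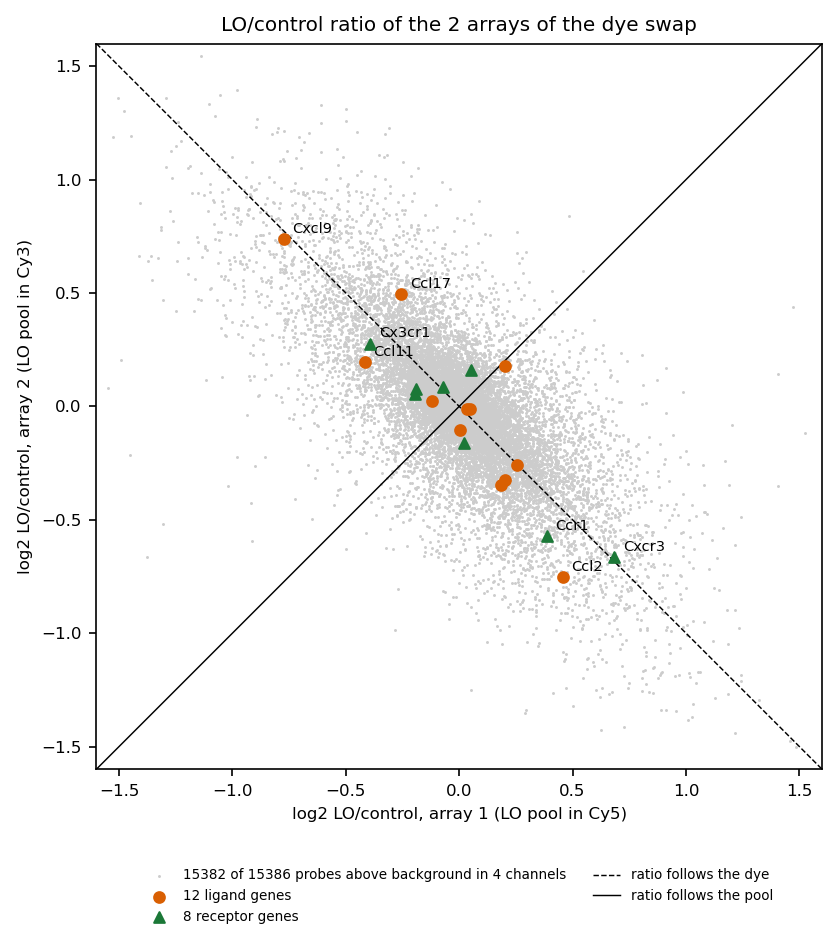
LO/control ratio (log2) on array 1 against array 2 for the 12 ligand genes (circles) and 8 receptor genes (triangles) measured in all 4 channels, over 15382 of the 15386 probes measured so (grey; 4 lie beyond the axes). Of the 20 genes, 18 lie where the signs of the arrays are opposed, along the dashed line on which a ratio follows the dye.

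Among the inflammatory CC ligands, Ccl2, Ccl3, Ccl4 and Ccl5 were measured in every channel. Ccl2, which recruits monocytes through Ccr2, had a signal of 232 in the LO pool and 171 in the control pool on array 1, and of 146 and 242 on array 2. The LO pool thus gave the higher signal on array 1 and the lower one on array 2, and the signals of the pools overlapped. The log2 LO/control of Ccl2 came to 0.46 and -0.75, an LO part of -0.15 and a dye part of 0.60.

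The Ccl2 probe was printed on 10 spots, so that its technical spread could be read. On array 1 its log2 ratio lay between 0.23 and 0.92 and was above 0 in 10 of 10 spots (mean 0.46, SD 0.21). On array 2 it lay between -1.22 and -0.39 and was below 0 in 10 of 10 spots (mean -0.75, SD 0.31). The turn of direction between the arrays was therefore found on every spot. The LO part over the spots was -0.15 ± 0.12 (SD, n = 10 spots) and was above 0 in 2 of them, and the dye part was 0.60 ± 0.23. Spots of 1 probe share the pools and measure only the error of the array.

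**Figure D3:**
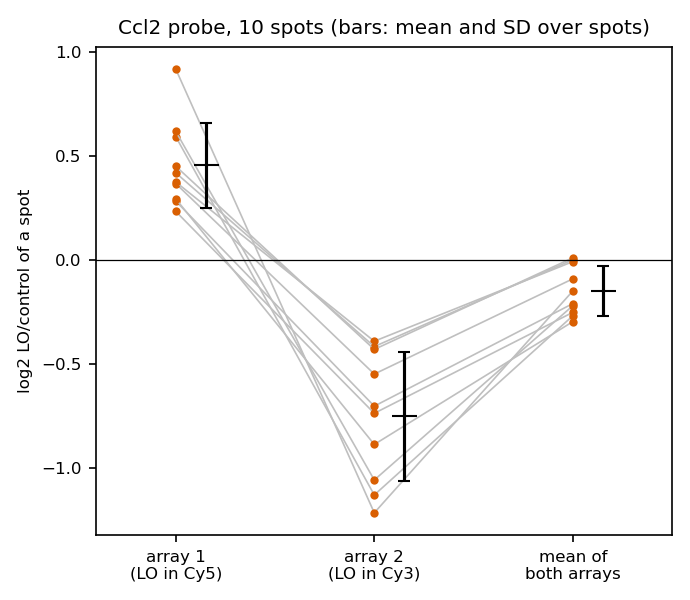
Log2 LO/control of each of the 10 spots of the Ccl2 probe on array 1, on array 2 and as the mean of both arrays, with lines joining the same spot position and bars giving the mean and SD over spots. Every spot lies above 0 on array 1 and below 0 on array 2. The means of both arrays lie between -0.30 and 0.011, above 0 in 2 of the 10 spots.

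Ccl3 and Ccl4 (MIP-1α and MIP-1β, inflammatory chemokines of activated leukocytes) both turned with the dye. Ccl3 had signals of 995 (LO) and 835 (control) on array 1 and of 849 and 1014 on array 2, with an LO/control ratio of 0.998 in the mean. Ccl4 had 317 and 276 on array 1 and 257 and 322 on array 2, with a mean ratio of 0.958. For both genes the higher signal was that of the pool in Cy5, LO on array 1 and control on array 2, with dye parts of 0.26 and 0.26.

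Ccl5 (RANTES), which is stored by platelets and made by T and NK cells, had signals of 16147 (LO) and 15757 (control) on array 1 and of 15757 and 15885 on array 2. Its log2 ratios were 0.035 and -0.012, so that the pools differed little on either array, and the mean ratio was 1.01. Ccl6, a chemokine of myeloid cells in rodents, had signals of 6797 and 7393 on array 1 and of 7014 and 6893 on array 2. Its log2 ratios were -0.12 and 0.025 and the mean ratio was 0.967.

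Of the CC ligands that attract eosinophils or Th2 cells, Ccl11 (eotaxin) had signals of 155 (LO) and 206 (control) on array 1 and of 360 and 315 on array 2. Ccl17, a ligand of Ccr4, had 97.0 and 116 on array 1 and 169 and 120 on array 2. In both the higher signal was that of the pool in Cy3, control on array 1 and LO on array 2, with dye parts of -0.31 and -0.37 and LO parts of -0.11 and 0.12. Ccl22, the other ligand of Ccr4, went the opposite way with the dye: 1300 and 1143 on array 1, and 1055 and 1343 on array 2 (LO part -0.081, dye part 0.27). A further Ccl22 probe, above background in 3 channels, had log2 ratios of 1.33 and -0.84. It passed a Feature Extraction p under 0.01 on both arrays towards Cy5. Ccl25, a homeostatic ligand of Ccr9, had signals between 120 and 130 in every channel and a mean ratio of 0.966.

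The remaining detected ligands are Cxcl9, Cx3cl1 and Xcl1. Cxcl9, an interferon-γ-induced ligand of Cxcr3, had signals of 109 (LO) and 186 (control) on array 1 and of 240 and 144 on array 2. The Cy3 channel was the brighter one on both arrays, the log2 ratios were -0.77 and 0.74, with Feature Extraction p values of 0.00632 and 0.00456. Its LO part was -0.018, a mean ratio of 0.988.

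Cx3cl1 (fractalkine), the membrane-bound ligand of Cx3cr1, had the largest LO part of the ligands measured in all 4 channels, read by its main probe. Its signals were 117 and 114 in the LO pool and 102 and 101 in the control pool, so that the pools did not overlap, and the LO/control ratio was 1.14 in the mean. The Feature Extraction p values were 0.546 and 0.585, and the other Cx3cl1 probe gave 69.5 and 69.7 in the LO pool and 73.7 and 69.0 in the control pool, a log2 mean of -0.035. Signals of the pools did not overlap in 2 of the 20 genes, Cx3cl1 and Cxcr2, compared with 13.3% of all probes measured in 4 channels. Xcl1 (lymphotactin), made by NK and CD8 T cells, had signals of 113 (LO) and 109 (control) on array 1 and of 150 and 152 on array 2, with a mean ratio of 1.01.

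Among the receptors, the CC class included Ccr1 and Ccr7 in all 4 channels. Ccr1, a receptor of monocytes and neutrophils for Ccl3 and Ccl5, had signals of 115 (LO) and 88.0 (control) on array 1 and of 74.7 and 111 on array 2. Its dye part of 0.48 exceeded its LO part of -0.092 in size. The pools overlapped. Ccr7, which takes naive T cells and mature dendritic cells to lymph nodes, had 252 and 248 on array 1 and 294 and 330 on array 2 (mean ratio 0.953).

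Of the CXC receptors, 4 of 5 were measured in all 4 channels. Cxcr2, the neutrophil receptor for Cxcl1 and Cxcl2, had signals of 218 (LO) and 210 (control) on array 1 and of 220 and 196 on array 2. Both arrays gave the LO pool the higher signal, and its LO part of 0.11, a ratio of 1.08, was the largest of the receptors measured in all 4 channels. Its Feature Extraction p values were 0.824 and 0.492.

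Cxcr3, the receptor of activated T and NK cells for Cxcl9, Cxcl10 and Cxcl11, had signals of 197 (LO) and 123 (control) on array 1 and of 133 and 210 on array 2. The Cy5 channel was the brighter one on both arrays. Its log2 ratios of 0.68 and -0.66 nearly cancelled, leaving an LO part of 0.0098 (Feature Extraction p 0.0168 and 0.0139). The probe of Cxcr3 had a dye part of 0.67 and that of Cxcl9 one of -0.75, while their mean ratios were 1.01 and 0.988. Dye parts can differ between probes of the same gene, as for Ccl22 (0.27 and 1.08), and they describe no trait of the pair.

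Cxcr4, the receptor that holds leukocytes in the bone marrow, had signals of 646 (LO) and 737 (control) on array 1 and of 827 and 784 on array 2, with an LO part of -0.057. Its other probe, in 3 channels, had 196 and 62.4 on array 1 and 161 and 210 on array 2, with log2 ratios of 1.65 and -0.39 and an LO part of 0.63. The control signal of 62.4 was not well above background. The direction of Cxcr4 therefore differed between its probes. Cxcr5, which brings B cells and follicular T cells into follicles, had 705 and 806 on array 1 and 757 and 728 on array 2 (LO part -0.069).

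Cx3cr1, carried by patrolling monocytes and cytotoxic lymphocytes, had signals of 318 (LO) and 417 (control) on array 1 and of 606 and 500 on array 2. The pool in Cy3 was the brighter one on each array, with a mean ratio of 0.961 and a dye part of -0.33. Its ligand Cx3cl1 had a mean ratio of 1.14 and a dye part of 0.012.

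**Figure D4:**
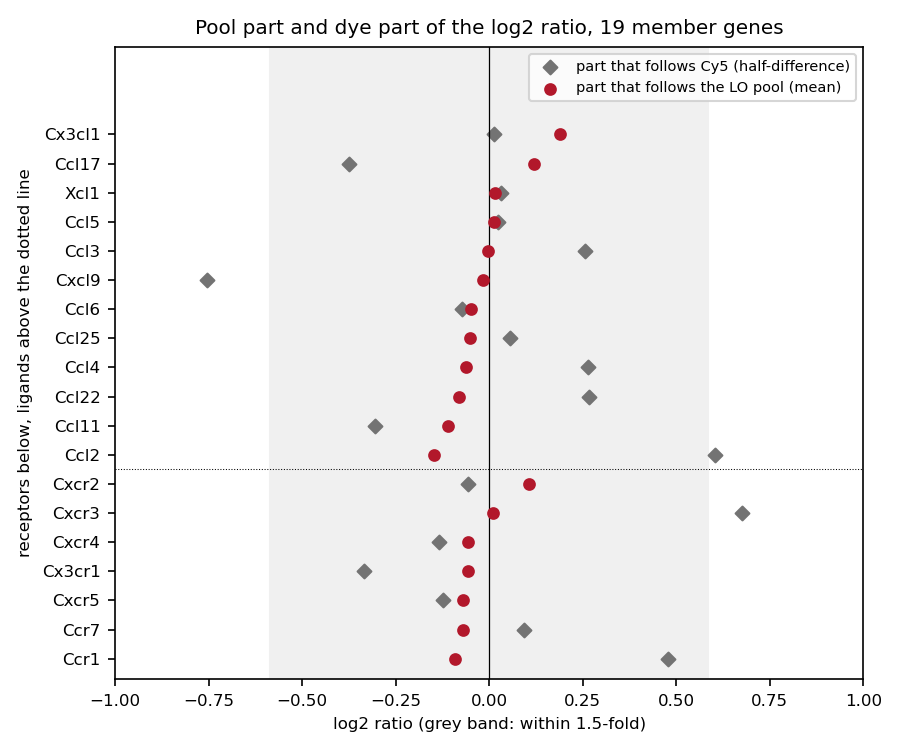
Mean of the arrays' log2 LO/control (LO part, red circles) and half-difference of the arrays (dye part, grey diamonds) for 12 ligand and 7 receptor genes measured in all 4 channels, the grey band marking ratios within 1.5-fold. All LO parts lie between -0.15 and 0.19, and the dye parts of Ccl2, Cxcl9 and Cxcr3 lie beyond the band.

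In the 12 genes measured in 1 to 3 channels a ratio against a signal not well above background has no exact size, and such ratios are given without an order. Cxcl10, the interferon-induced ligand of Cxcr3, had a signal of 114 in the LO pool on array 1 and of 98.6 in the control pool on array 2, both in Cy5. In Cy3 it was not well above background, at 11.5 in the control pool and 14.4 in the LO pool. Its log2 ratios were 3.31 and -2.77, with a Feature Extraction p of 2.66e-07 and 1.24e-05, and Cxcl10 thus passed on both arrays in opposite directions of LO/control. The 3 ligands of Cxcr3 were unlike each other in the channels: Cxcl9 was brighter in Cy3, Cxcl10 was above background only in Cy5, and Cxcl11 was above background in no channel.

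Ccl7, a monocyte chemoattractant related to Ccl2, had signals of 51.9 (LO, not well above background) and 109 (control) on array 1 and of 171 and 72.1 on array 2. It passed on both arrays towards Cy3, with log2 ratios of -1.06 and 1.25 and an LO part of 0.092. Ccl2 leaned towards Cy5 and Ccl7 towards Cy3. Ccl9, a myeloid chemokine of rodents, was above background only in Cy3, at 60.7 in the control pool on array 1 and 63.4 in the LO pool on array 2. The signals of Ccl9 in Cy5 were 14.1 (LO) and 37.0 (control), neither well above background. The further probe of Ccl7 was likewise above background only in Cy3, at 74.6 (control, array 1) and 84.5 (LO, array 2).

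Ccr3, the eosinophil receptor of Ccl11, gave a higher signal in the LO pool than in the control pool on each array. It had signals of 83.3 (LO) and 72.5 (control, not well above background) on array 1 and of 170 and 98.3 on array 2. Its log2 ratios were 0.20 and 0.79, with a Feature Extraction p of 0.647 and 0.0106, so that it missed the threshold on each array. Ccr9, a gut-homing receptor and the receptor of Ccl25, was also above 0 on both arrays, with log2 ratios of 0.14 and 0.22 and signals of 67.1 (LO) and 61.1 (control, not well above background) on array 1 and of 130 and 111 on array 2. Ccr2, the monocyte receptor of Ccl2, had 72.3 and 57.6 (control, not well above background) on array 1 and 88.0 and 126 on array 2, with opposed log2 ratios of 0.33 and -0.51. Cxcl2, a ligand of Cxcr2, was above background on array 2 only, at 61.2 (LO) and 71.4 (control).

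The 5 genes seen in a single channel were all seen in Cy3. Ccr4, the receptor of Ccl17 and Ccl22, had a signal of 84.6 in the LO pool on array 2, and Cxcr1, a neutrophil receptor, had one of 81.6 there. Cxcl14, a homeostatic ligand, had 86.2 in the same channel, whereas Cxcl12, the ligand of Cxcr4, had 65.2 in the control pool on array 1. The other 3 channels of each gene were not well above background. Ccl21, a homeostatic ligand of Ccr7, was above background in the LO pool of array 2 alone, at 62.4 against 48.2 in the control pool. No fold is given for these 5 genes. Among the 46 probes, 2 passed the threshold on both arrays towards Cy5 (Cxcl10 and the further Ccl22 probe) and 2 towards Cy3 (Cxcl9 and Ccl7). The background was 1.58% towards Cy5 and 1.06% towards Cy3. On array 1 alone 9 probes had a Feature Extraction p under 0.01 and on array 2 alone 5 did, with backgrounds of 5.95% and 6.29%.

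Genes that act downstream of chemokine receptors were taken from a list of G protein subunits, arrestins, receptor kinases, small GTPases, kinases and integrins. Of its 40 genes 30 could be named on the array, and 26 were above background in all 4 channels. None of its 39 probes passed the rule of the methods, and 0 of the 34 probes measured in all 4 channels exceeded 1.5-fold in the LO part. The LO part of the 26 genes ran from -0.22 to 0.065 with a median of -0.033. The lowest were Itgal (-0.22), the α chain of the integrin LFA-1, Rgs2 (-0.19), a regulator of G protein signalling, and Gnb2 (-0.13), a G protein β subunit. The highest were Cdc42 (0.065), a GTPase of cell polarity, Gnb1 (0.056), another β subunit, and Gnai3 (0.039), an inhibitory α subunit. Itgal turned its direction between the arrays like most chemokine genes (log2 ratio 0.41 and -0.86), whereas Rgs2 was lower in the LO pool on both (-0.13 and -0.25).

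Markers of red cells, platelets, neutrophils, T cells, B cells, NK cells and monocytes were above background in all 4 channels wherever a probe could be named, so that the labelled tissue carried the markers of blood. Their median LO part lay between -0.12 (monocytes, 6 genes) and 0.097 (neutrophils, 5 genes), and 0 of their genes passed the rule of the methods or 1.5-fold. Their median dye part was largest for the red cells, at 0.553 over 3 genes, where Alas2, an enzyme of haem synthesis, had one of 1.11 and passed on both arrays towards Cy5. The neutrophil receptor Cxcr2 had an LO part of 0.11 beside that neutrophil median. Ccr1, Ccr2 and Cx3cr1, carried by monocytes, had LO parts of -0.092, -0.092 and -0.057 beside the monocyte median. The log2 ratios of each of these receptors were opposed between the arrays, and Ccr2 had a control signal not well above background on array 1. Ccr1 is also carried by neutrophils and Cx3cr1 by cytotoxic lymphocytes, so that their values stand for no single cell type. For lymphocyte receptors the signs were mixed. Ccr7 had an LO part of -0.070 beside a T cell median of 0.080 (4 genes). Cxcr3 had one of 0.0098 beside that T cell median and an NK cell median of -0.053 (5 genes). Cxcr5 had one of -0.069 beside a B cell median of -0.11 (2 genes). The part of cell numbers in these values was not tested.

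The median processed signal of all features was 53.6 (LO) and 55.6 (control) on array 1 and 62.8 and 60.7 on array 2, and between 44.8% and 50.3% of features were well above background in a channel. The lowest signal so rated was between 50.2 and 54.9, but the rating is made feature by feature, and some signals above that value were not rated so, among them that of 66.8 of Cxcl6. With 2 arrays of the same pools, precision is limited by their number.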

How the data were processed

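RNA of whole blood, pooled from 6 rats per group, was hybridised to 2 Agilent rat whole genome arrays as a dye swap. The authors processed the scans with Feature Extraction 11.0.1.1, and the deposited files hold, per feature, the signal intensity of each channel with background subtracted and dyes normalized by LOWESS, a log10 ratio of the dyes (Cy5 over Cy3), its error as a score, the p-value of an error model (not adjusted), and quality flags. The deposited value table equalled the log10 ratio of the processed signals within 0.0001 on both arrays, with medians as LO over control of 0.0229 and -0.0157. The scanner log ratio was 0 in the 6392 and 5726 features where they differed.

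Control spots and the 338 features flagged on either array as non-uniform or as population outliers were left out, spots of a probe were averaged and their p taken as the median. Ratios were turned to LO over control and put on the log2 scale. A probe passed when p was under 0.01 on both arrays, since the methods do not say whether 1 array sufficed. Symbols came from RefSeq accessions of the probes (10767 of 41009 probes named), and RefSeq promoters from GRCr8. The array was designed on rn4, and no probe coordinates, probe sequences or protein sequences were used here. The gene family, the lists and the tests were chosen with earlier results of these data known, and the promoter pattern after the detection values were seen. With 1 exception, which is counted but not reported here by name, every gene of the family above background in all 4 channels is named with its values, those in 1 to 3 channels with their number or values, those in none by name, and of the signalling list the 3 highest and 3 lowest. The rule for passing probes was tried on simulated data with changes of 2 or -2 on the log2 scale. There it gave no change the wrong direction but missed many of those put in. A probe that did not pass may therefore still differ between the pools. Alternatives covered the detection flag, p threshold, probe choice, median centring, normexp with offset 50 and loess (on median signals, which the files hold, in place of the planned means), the value table and each array alone. R 4.3.3 with limma 3.58.1 and Python 3.11.15 with pandas 2.3.3, numpy 2.4.6, scipy 1.17.1 and matplotlib 3.10.9 were used.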

Additional observations from a re-analysis of the deposited data

How the results depend on the processing

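No chemokine or receptor probe passed the rule of the methods towards the same pool under any p threshold, probe filter or flag setting tried. With features rated positive and significant against background in place of well above it, 33 genes were measured in all 4 channels in place of 20. The probes that passed towards the same dye numbered 4, and 5 with p under 0.05. They numbered 1 with p under 0.001, 1 with Benjamini-Hochberg adjustment and 1 among probes above background in all 4 channels. With every feature taken on its own, 5 features passed. Shares over all genes or probes are not given for these alternatives. Genes over 1.5-fold numbered 0, but 1 where 1 channel on each array sufficed (Ccl9, ratio 0.632), 2 on array 1 alone (Cxcl9 and Cxcr3) and 3 on array 2 alone (Ccl2, Cxcl9 and Cxcr3). Of all 15386 probes measured in 4 channels, 1169 exceeded 1.5-fold on array 1 alone and 1301 on array 2 alone. The median LO/control log2 ratio of the ligands was -0.11 after median centring and 0.041 on array 1 alone, and that of the receptors was 0.066 on array 2 alone, so that both signs depended on the array. Single genes turned sign in 0 of 20 cases with the value table, 2 with median centring, 3 with normexp and loess, 3 with the mean over probes, and 9 with each array alone. Median centring moved the median dye part from 0.018 to 0.28. The arrays are copies of 1 comparison, so no replicate could be left out, and signals below about the lowest rated value could not be ranked. No paired analysis was possible because each group is 1 pool and the result comes from no test.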
